A study of Mus musculus with 30 samples.

Results

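The Hox genes are the homeobox genes of the Hoxa, Hoxb, Hoxc and Hoxd clusters, taken here as every symbol made of one of these names followed by a paralogue number. The rule found 39 genes among the 20286 symbols of the deposited RNA tables: 11 in Hoxa, 10 in Hoxb, 9 in Hoxc and 9 in Hoxd. Their RNA was read in mouse embryonic stem (ES) cells lacking Tdg (Tdg -/-) and in ES cells whose Tdg alleles are floxed (Tdg fl/fl), both of the C57BL/6-ICR strain. Tdg encodes thymine DNA glycosylase, which removes formylated and carboxylated cytosine made by the TET enzymes during DNA demethylation. The table of each genotype stands for 2 polyA RNA libraries of 51 bp reads. The labels of these libraries do not describe the culture; those of other libraries of the series give feeder-free medium with serum, LIF, CHIR99021 and PD0325901. How many ES clones each genotype stands for is not stated.

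Hox proteins are transcription factors that give the cells of the body axis, limbs and internal organs their position. In each cluster the genes lie in the order of their paralogue numbers, and low numbers are switched on earlier and further forward in the embryo than high ones. In ES cells the clusters are known for repression by Polycomb complexes, with both activating and repressive histone marks at their promoters.

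The tables give FPKM, fragments per kilobase of transcript scaled to the number of mapped reads, a level per length that can be compared between genes. Each gene has 1 value per genotype for both libraries together, so no value has a replicate error, no test between genotypes was possible, and every difference below is a description. In Tdg -/- cells Tdg itself stood at 9.48 FPKM, against 22.1 FPKM in fl/fl cells, or 42.9% of it. The labels do not say which exons are missing, so this value is only a partial check of the labels. ES cell markers were high in both tables, with Pou5f1 at 612 FPKM in Tdg -/- and 631 FPKM in fl/fl cells and Nanog at 456 and 473 FPKM in the same order of genotypes.

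Most Hox genes were near silence, and a few leaked. In Tdg -/- cells 4 of the 39 were listed at 0, 16 were above 0 and under 0.1 FPKM, 14 lay from 0.1 to under 1 FPKM, and 5 were at 1 FPKM or more. In fl/fl cells these numbers were 4, 15, 15 and 5. The share listed at 0 was 10.3% in each genotype, near that of all symbols, 11.2% in Tdg -/- and 11.4% in fl/fl cells. Values above 0 and under 0.1 FPKM made up 41.0% of Hox genes in Tdg -/- and 38.5% in fl/fl cells. Among all symbols these shares were 14.5% and 14.1%. The same 5 genes, Hoxc12, Hoxc13, Hoxc4, Hoxb13 and Hoxb9, passed 1 FPKM in both genotypes. That is 12.8% of the members, while 59.4% of all symbols reached 1 FPKM in either genotype. The median Hox gene stood at 0.0955 FPKM in Tdg -/- and 0.118 FPKM in fl/fl cells, and the median symbol of the whole table at 2.64 and 2.56 FPKM in these genotypes. Summed over the 39 genes, the level was 21.1 FPKM in Tdg -/- and 20.99 FPKM in fl/fl cells, of which the 5 highest genes held 75.9% and 75.8%. In such bulk values, fewer expressing cells and less RNA per cell cannot be told apart.

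**Figure D1:**
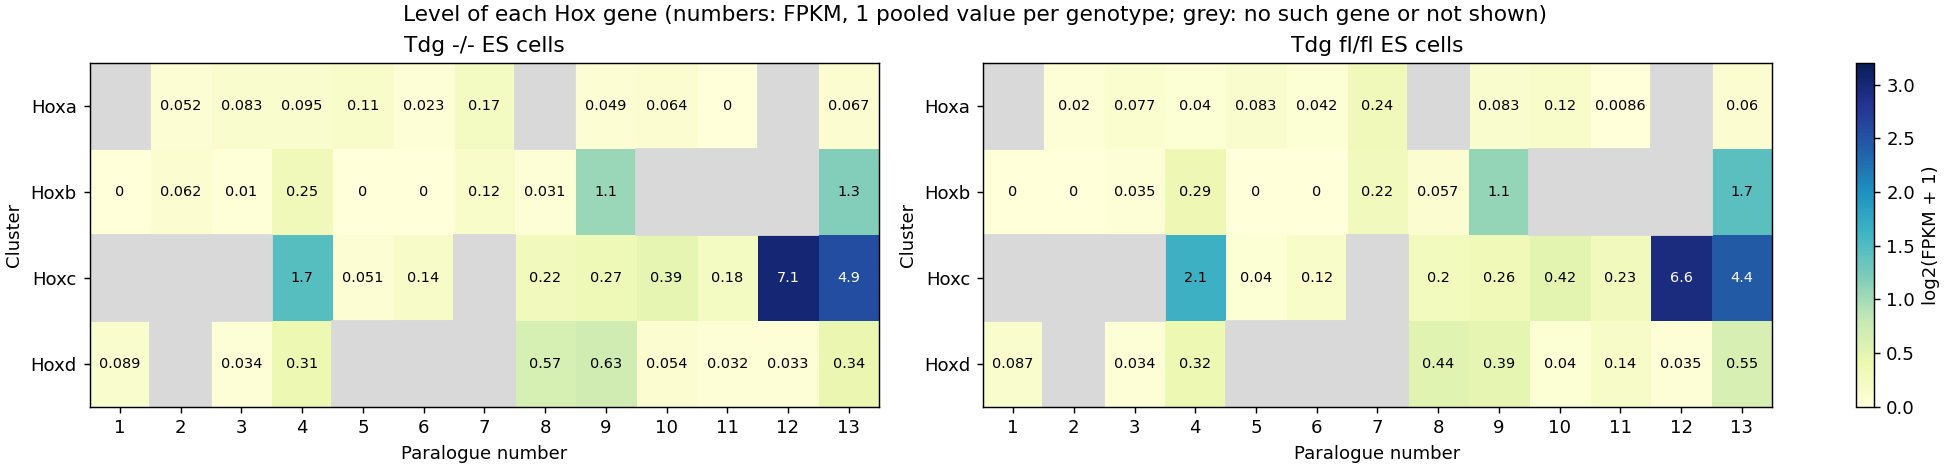
FPKM of the Hox genes, by cluster (rows) and paralogue number (columns), in Tdg -/- cells (left) and Tdg fl/fl cells (right). Colour gives log2(FPKM + 1) and the number in each cell the FPKM; grey cells have no such gene or are not shown. Hoxc12 and Hoxc13 stand out in both panels, at 7.07 and 4.87 FPKM in Tdg -/- cells and 6.60 and 4.41 FPKM in fl/fl cells.

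Hoxc held most of the Hox RNA. Its 9 genes summed to 14.9 FPKM in Tdg -/- and 14.4 FPKM in fl/fl cells, which was 70.7% and 68.5% of the summed Hox level. Hoxc12, which acts in skin and hair follicles, was the highest Hox gene, with 7.07 FPKM in Tdg -/- and 6.60 FPKM in fl/fl cells. Hoxc13, a regulator of keratin genes in hair and nails, followed with 4.87 FPKM in Tdg -/- and 4.41 FPKM in fl/fl cells. These neighbours form the 5′ end of the cluster. At the opposite end, Hoxc4 had 1.74 FPKM in Tdg -/- and 2.11 FPKM in fl/fl cells. The genes between them were lower by far. Hoxc11 had 0.176 FPKM in Tdg -/- and 0.227 FPKM in fl/fl cells, and Hoxc10, which acts in the lumbar spine and hindlimb nerves, had 0.387 and 0.418 FPKM in these genotypes. Hoxc5 was the lowest, at 0.0511 FPKM in Tdg -/- and 0.0402 FPKM in fl/fl cells. No Hoxc gene was listed at 0 in either table.

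Hoxb held both the other leaks and the deepest silence. Its 10 genes summed to 2.80 FPKM in Tdg -/- and 3.41 FPKM in fl/fl cells. Hoxb13, known from the tail bud and the prostate, had 1.26 FPKM in Tdg -/- and 1.69 FPKM in fl/fl cells. Hoxb9, which helps to pattern the thoracic skeleton, had 1.07 FPKM in Tdg -/- and 1.11 FPKM in fl/fl cells and was the member just above the threshold. Again these were the genes at the 5′ end of the cluster. Hoxb1, which specifies a segment of the hindbrain, Hoxb5 and Hoxb6 were listed at 0 in both tables. Hoxb2, also a hindbrain gene, was at 0.0625 FPKM in Tdg -/- cells and listed at 0 in fl/fl cells. Among the rest, Hoxb4, known from blood stem cells, had 0.252 FPKM in Tdg -/- and 0.292 FPKM in fl/fl cells.

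No gene of Hoxa or Hoxd reached 1 FPKM. The 11 Hoxa genes summed to 1.28 FPKM in Tdg -/- and 1.17 FPKM in fl/fl cells, and the 9 Hoxd genes to 2.09 and 2.03 FPKM. Hoxa11, which acts in the limb and the uterus, was listed at 0 in Tdg -/- cells and stood at 0.00861 FPKM in fl/fl cells. In Tdg -/- cells 8 of the 11 Hoxa genes were listed at 0 or under 0.1 FPKM, and in fl/fl cells 8 were under 0.1 FPKM and none was listed at 0. In Hoxd the middle of the cluster was highest in Tdg -/- cells, where Hoxd9 had 0.630 FPKM, against 0.388 FPKM in fl/fl cells. Hoxd8 had 0.569 FPKM in Tdg -/- and 0.444 FPKM in fl/fl cells. Both were among the 3 genes closest below the threshold. Hoxd13, a digit and limb gene, was the highest of its cluster in fl/fl cells, with 0.336 FPKM in Tdg -/- and 0.548 FPKM in fl/fl cells.

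By paralogue number, the level lay in groups 12, 13, 4 and 9. Group 12 (Hoxc12 and Hoxd12) summed to 7.10 FPKM in Tdg -/- and 6.64 FPKM in fl/fl cells, nearly all of it Hoxc12, since Hoxd12 had 0.0331 and 0.0352 FPKM. Group 13 summed to 6.53 FPKM in Tdg -/- and 6.70 FPKM in fl/fl cells, and its members differed widely, from Hoxa13 at 0.0671 and 0.0598 FPKM to Hoxc13. Group 4 had 2.40 FPKM in Tdg -/- and 2.76 FPKM in fl/fl cells, of which Hoxc4 held 1.74 and 2.11 FPKM. Group 9 had 2.02 and 1.84 FPKM, of which Hoxb9 held 1.07 and 1.11 FPKM. Groups 4, 9 and 13 have 4 genes each and the others 2 or 3, and the sums are not adjusted for this. Groups 2, 3, 5 and 6 were the quietest, each with less than 0.2 FPKM in either genotype: group 2 summed to 0.114 FPKM in Tdg -/- and 0.0201 FPKM in fl/fl cells, and group 3 to 0.126 and 0.146 FPKM. Of the 16 genes of groups 9 to 13, 4 were at 1 FPKM or more in each genotype. One of the 15 genes of groups 4 to 8, Hoxc4, reached it, and none of the 8 genes of groups 1 to 3 did. Within a paralogue number the level differed between clusters, and not all high numbers leaked. Hoxa10, Hoxa11, Hoxa13, Hoxd10 and Hoxd12 were at or under 0.118 FPKM in both genotypes.

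**Figure D2:**
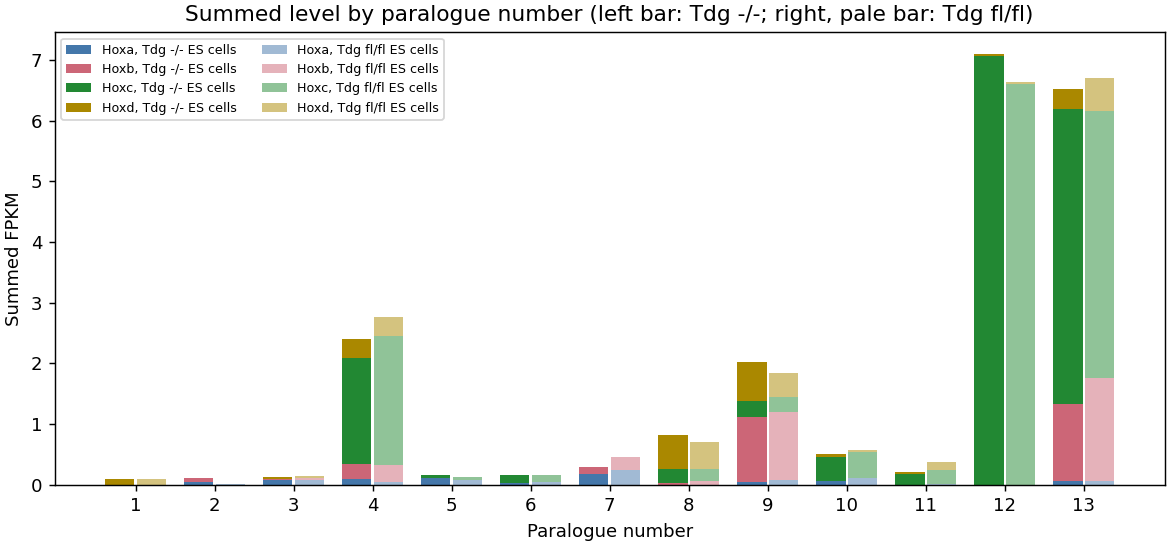
Summed FPKM of the Hox genes described, by paralogue number, with Tdg -/- cells in the left bar and Tdg fl/fl cells in the right, pale bar, coloured by cluster. Groups 12 and 13 reach 7.10 and 6.53 FPKM in Tdg -/- cells and 6.64 and 6.70 FPKM in fl/fl cells, mostly from Hoxc.

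Other developmental homeobox genes, which also pattern the embryo, were mostly silent too. Of 86 such genes, 12 were at 1 FPKM or more in either genotype, or 13.95%, with a median of 0.113 FPKM in Tdg -/- and 0.127 FPKM in fl/fl cells. Of 12 ParaHox and Hox-linked homeobox genes, 2 reached it, Gbx2 with 2.26 FPKM in Tdg -/- and 2.42 FPKM in fl/fl cells and En2 with 1.45 and 1.87 FPKM. Evx1, the homeobox gene beyond the Hoxa13 end of its cluster, had 0.0373 FPKM in Tdg -/- and 0.0586 FPKM in fl/fl cells, and Evx2, next to Hoxd13, was listed at 0 in both. The difference between Hox and these other genes was not tested.

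**Figure D3:**
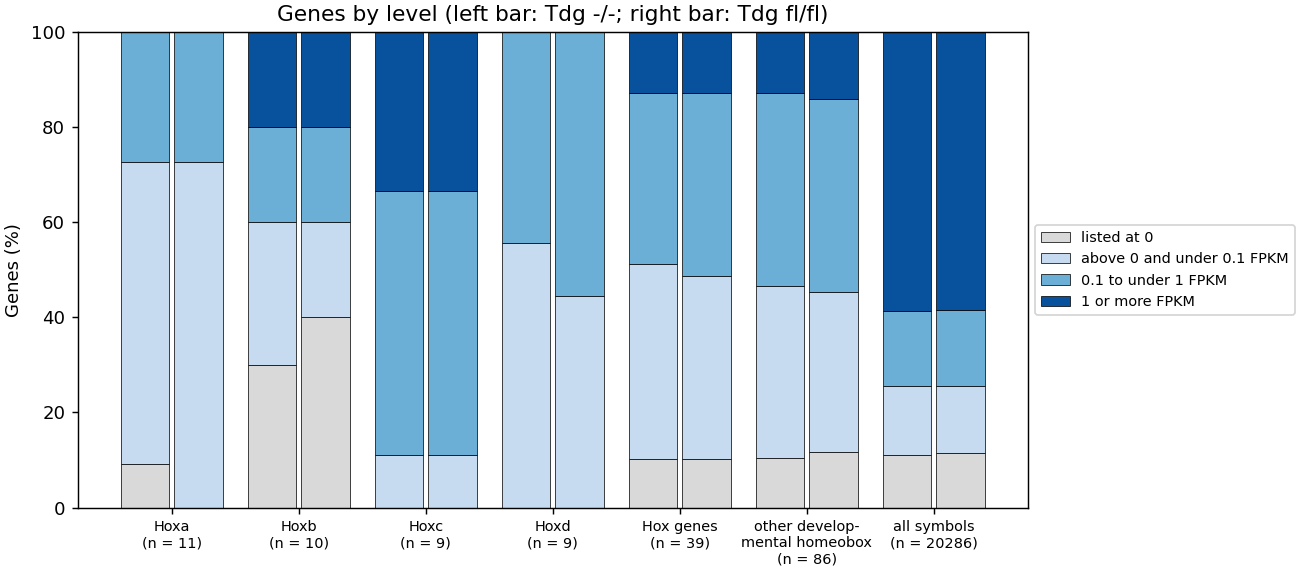
Share of genes by level for each Hox cluster, all Hox genes, other developmental homeobox genes and all symbols, with Tdg -/- cells in the left bar and Tdg fl/fl cells in the right bar. In each genotype 12.8% of Hox genes were at 1 FPKM or more, against 58.6% of all symbols in Tdg -/- and 58.4% in fl/fl cells.

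The order of levels was close in both genotypes. Across the 39 genes Spearman's rho between the tables was 0.92, and Pearson's r of log2(FPKM + 1) was 0.99. Across the 34 genes under 1 FPKM these were 0.88 and 0.91. Genes are not independent replicates, and the members share clusters and libraries. Each change below is log2(FPKM + 1) in Tdg -/- cells minus log2(FPKM + 1) in fl/fl cells. The added 1 makes changes of low genes look smaller than they are. None of the 5 Hox genes at 1 FPKM or more changed by 1 on this scale, that is by 2-fold, in either direction, while the 34 genes under 1 FPKM in both genotypes cannot reach such a change with 1 added. Among the 12053 symbols with at least 1 FPKM in either genotype, 22 (0.183%) were 2-fold higher in Tdg -/- cells and 21 (0.174%) 2-fold lower, 0.357% in all. All 39 changes lay between -0.25 (Hoxb13) and 0.23 (Hoxd9), with 18 above 0, 18 below 0 and 3 at 0. This range depends on the added 1: with 0.1 added instead, the changes lay between -0.84 (Hoxd11) and 0.70 (Hoxb2), and Hoxb13 was at -0.40. On that scale, 1.87% of the 15435 symbols with at least 0.1 FPKM in either genotype passed a change of 1. The 5 leaking genes had changes of 0.086 for Hoxc12, 0.12 for Hoxc13, -0.18 for Hoxc4, -0.25 for Hoxb13 and -0.026 for Hoxb9. Their median was -0.026, beside -0.021 for all symbols at 1 FPKM or more.

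**Figure D4:**
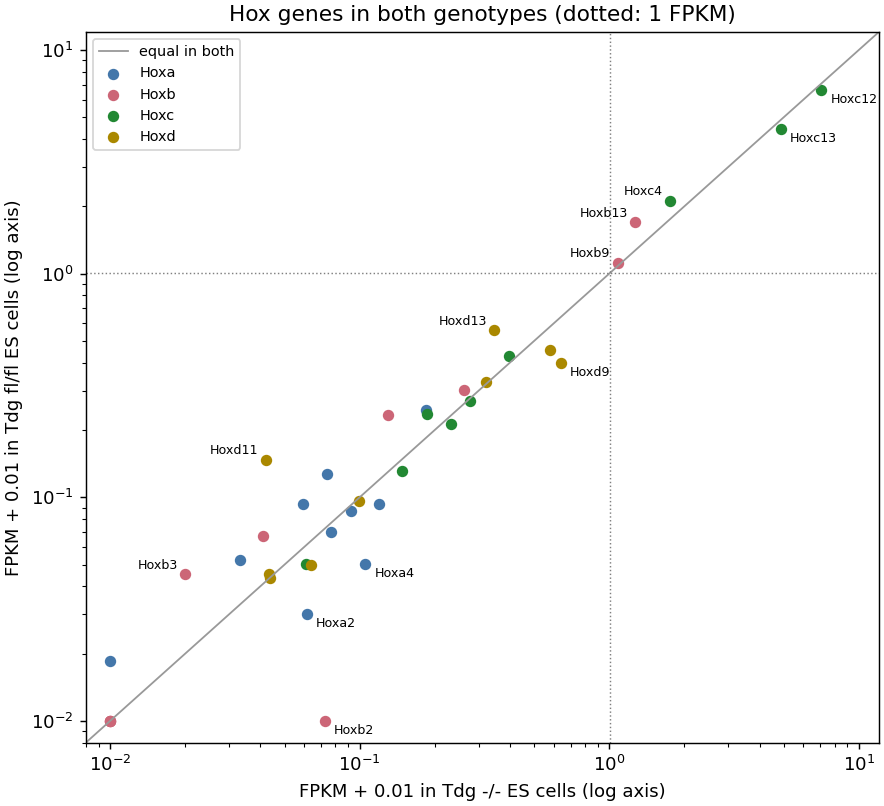
FPKM + 0.01 of the Hox genes described in Tdg -/- cells (x axis, log scale) and in Tdg fl/fl cells (y axis, log scale), coloured by cluster, with a line of equal values and dotted lines at 1 FPKM. The 5 genes past 1 FPKM lie near the line, and the scatter widens at the low end, where Hoxd11 stood at 0.0321 FPKM in Tdg -/- and 0.137 FPKM in fl/fl cells.

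Ratios of FPKM without the added 1 reached 2-fold at trace levels. Among the 29 Hox genes under 1 FPKM and above 0 in both tables, 2 had a ratio of at least 2 and 2 of at most 0.5, or 13.8%, while 18.3% of the 5455 such symbols did. These were Hoxa2, Hoxa4, Hoxb3 and Hoxd11. Hoxa2, which patterns the second branchial arch, had 0.0516 FPKM in Tdg -/- and 0.0201 FPKM in fl/fl cells. Hoxd11, a forearm gene, had 0.0321 FPKM in Tdg -/- and 0.137 FPKM in fl/fl cells. The read depth is unknown, so the number of reads behind such values is unknown too, and a difference could not be told from counting error. Of the 39 genes, 20 also overlap another gene model in the RefSeq annotation (GRCm38.p6), among them Hoxa3 with Hoxa4, Hoxb3 with Hoxb4 and Hoxd3 with Hoxd4, and the TruSeq RNA v2 kit does not mark the strand, so their low values may be shared between genes. Hoxb9, Hoxb13, Hoxc12 and Hoxc13 overlap no other model there, and Hoxc4 overlaps a long non-coding RNA.

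Each cluster was then set beside its surroundings. The 5 nearest genes listed on each side were taken from the order of genes in the same annotation. At least 1 FPKM in either genotype, which 59.4% of all symbols had, was reached by 7 of 10 at Hoxa, 8 of 10 at Hoxb, 8 of 10 at Hoxc and 7 of 10 at Hoxd. The median of the flanking genes ranged from 4.74 FPKM at Hoxc to 26.6 FPKM at Hoxa in Tdg -/- cells, and from 4.51 FPKM at Hoxc to 28.2 FPKM at Hoxa in fl/fl cells.

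Chromosome 11, which carries Hoxb, was lower as a whole in Tdg -/- cells, with a median change of -0.21 over its 999 measured genes, while those of the other 19 chromosomes lay between -0.031 and 0.0044. All 8 measured flanking genes of Hoxb were below 0, with a median of -0.46. Inside the cluster, Hoxb13 was at -0.25 and Hoxb9 at -0.026. Relative to the median of the chromosome they were at -0.041 and 0.19. Relative to the nearest 25 measured genes on each side they were at 0.013 and 0.23. So with 1 added the sign of Hoxb9 turned under both, and that of Hoxb13 under the second. The added 1 shrinks the changes of these low genes more than those of higher neighbours. With 0.1 added, Hoxb13 was at -0.40 and Hoxb9 at -0.045, but no medians were taken on that scale. Whether Hoxb13 differs from its surroundings is therefore not settled. What part the chromosome has in these values was not tested. For Hoxc12, Hoxc13 and Hoxc4 on chromosome 15, whose median change was -0.013, the values relative to the chromosome were 0.099, 0.13 and -0.17. Relative to up to 25 measured genes on each side they were 0.15, 0.18 and -0.12. These were 35 genes in all, with fewer than 25 on the side where the chromosome ends.

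Between Hoxb13 and Hoxb9 lie 2 other listed genes, Gm53, a long non-coding RNA, and Mir196a-1, the gene of a microRNA that targets Hox mRNAs. Both were named after their values were seen. Gm53 had 16.7 FPKM in Tdg -/- and 12.7 FPKM in fl/fl cells, a change of 0.37, and Mir196a-1 had 18.1 and 15.7 FPKM, a change of 0.20. Both were above every Hox gene in each table. FPKM of a gene as short as a microRNA hairpin, here 102 bases, is uncertain, the gene also overlaps a long non-coding RNA model, and polyA RNA says nothing of the mature microRNA. The mature form is shown because its seed, the stretch by which it pairs with targets, is what links it to the Hox genes; bases 2 to 8 are in capitals, from RefSeq (GRCm38.p6, chr11:96265187-96265208, plus strand).
mmu-miR-196a-5p: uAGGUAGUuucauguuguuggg
The stretch from Hoxb13 to Hoxb9 thus held 4 listed genes, each at 1 FPKM or more in both genotypes, while the 8 Hoxb genes beyond Hoxb9 were at most 0.252 FPKM in Tdg -/- and 0.292 FPKM in fl/fl cells. Other non-coding RNAs listed inside the clusters were near 0. Hoxa11as was listed at 0 in Tdg -/- cells and at 0.0185 FPKM in fl/fl cells, and 2700086A05Rik (Hoxaas3) at 0 and 0.0441 FPKM. The Hoxd transcript 1700109F18Rik (Hoxd3os1) was at 0.0140 FPKM in Tdg -/- cells and listed at 0 in fl/fl cells.

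**Figure D5:**
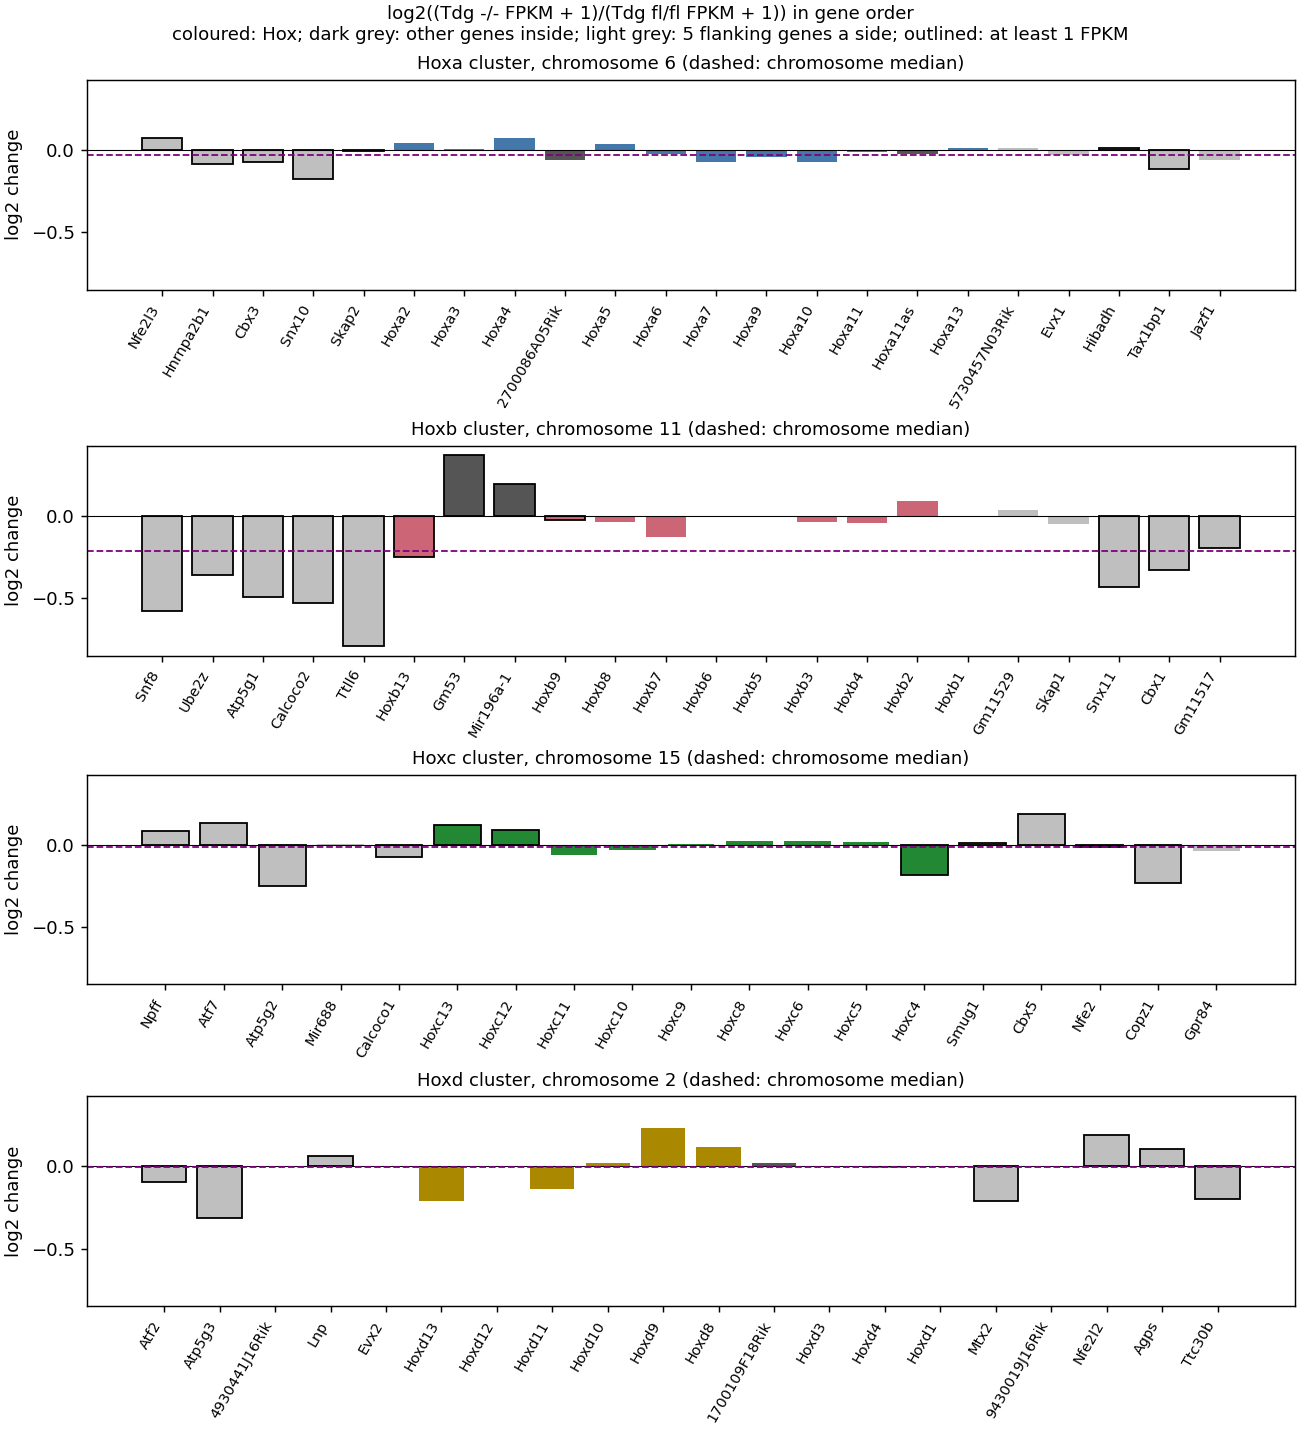
Change of the genes described and their neighbours on the log2(FPKM + 1) scale, Tdg -/- over fl/fl, in the order of genes along the 4 clusters with 5 flanking genes on each side; coloured bars are Hox genes, dark grey bars other genes inside, light grey bars flanking genes, outlined bars genes at 1 FPKM or more, and the dashed line is the median of the chromosome. The 8 measured flanks of Hoxb lie below 0, while Gm53 (0.37) and Mir196a-1 (0.20) inside the cluster lie above it.

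CpG dinucleotides are the sites at which methylated cytosine and its oxidised forms mostly occur. RefSeq promoter windows of 300 bases, 250 before to 50 after the start, were at hand for 22 of the 39 Hox genes (24 windows, GRCm38.p6). Most were of Hoxa and Hoxd genes. Of Hoxb only Hoxb1, Hoxb4 and Hoxb8 had a window, and of Hoxc only Hoxc4. The 24 windows held a median of 14.5 CpG, between 4 and 45. The median was 17 in 73 windows of the other developmental homeobox genes and 7 in all 32851 windows. At least 10 CpG were found in 17 of the 24, or 70.8%, against 83.6% of windows of the other developmental homeobox genes and 43.5% of all windows. The motif TATAAA, on either strand, was in 4 of the 24 (16.7%), in 9.6% of those other windows and in 13.6% of all windows. Of the 5 leaking genes Hoxc4 alone had a window, with 9 CpG, while Hoxb1, listed at 0 in both genotypes, had 10. No order of level by CpG number is read from 1 leaking gene. The 250 bases before the start of both are given as those of 1 leaking and 1 silent gene, with each CpG in capitals. The window of Hoxc4 is chr15:103034145-103034394 and that of Hoxb1 is chr11:96365508-96365757, both on the plus strand in GRCm38.p6, with 8 and 7 CpG.
Hoxc4: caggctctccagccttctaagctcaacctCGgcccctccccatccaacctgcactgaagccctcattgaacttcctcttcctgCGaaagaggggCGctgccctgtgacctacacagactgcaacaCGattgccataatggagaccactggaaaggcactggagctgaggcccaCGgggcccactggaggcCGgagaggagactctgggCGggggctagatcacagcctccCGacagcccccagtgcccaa
Hoxb1: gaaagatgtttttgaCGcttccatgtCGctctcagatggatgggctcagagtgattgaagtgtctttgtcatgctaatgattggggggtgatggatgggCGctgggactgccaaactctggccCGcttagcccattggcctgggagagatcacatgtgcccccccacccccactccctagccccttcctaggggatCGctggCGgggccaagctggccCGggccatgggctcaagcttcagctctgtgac

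The repressors of the clusters were well expressed in both genotypes. Among all symbols, 59.4% were at 1 FPKM or more in either genotype, and 0.357% of those were at 2-fold. At that share, lists as short as these would mostly hold none at 2-fold. All 11 genes of Polycomb repressive complex 2, which methylates histone H3 at lysine 27, were at 1 FPKM or more, with a median change of -0.022 and none at 2-fold. Suz12, a core subunit, had 123 FPKM in Tdg -/- and 141 FPKM in fl/fl cells, Mtf2 had 117 and 111 FPKM, and Rbbp4 had 99.6 and 108 FPKM. The largest changes were -0.23 for Ezh1 and -0.19 for Suz12, both on chromosome 11; relative to its median they were at -0.016 and 0.020. Of the 19 genes of Polycomb repressive complex 1, which ubiquitinates histone H2A and compacts chromatin, 17 were at 1 FPKM or more, with a median change of 0.039 and none at 2-fold. Phc1 had 93.0 FPKM in Tdg -/- and 93.6 FPKM in fl/fl cells, Cbx7 had 61.1 and 57.2 FPKM, and Rybp had 54.2 and 60.7 FPKM. The largest values among them were -0.17 for Pcgf2, on chromosome 11 and at 0.039 relative to its median, and 0.17 for Bmi1.

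Genes of the opposing trithorax group and the demethylases of H3 lysine 27 were all at 1 FPKM or more (10 of 10 found in the tables), with a median change of 0.041 and none at 2-fold. Ash2l, a subunit of the H3 lysine 4 methyltransferases, had 133 FPKM in Tdg -/- and 127 FPKM in fl/fl cells, Wdr5 had 115 and 110 FPKM, and Dpy30 had 90.7 and 98.0 FPKM. Men1 was at -0.23 and Kdm6b, on chromosome 11, at -0.16, or 0.051 relative to its median. The TALE cofactors bind DNA together with Hox proteins, and 8 of 9 were at 1 FPKM or more, with a median change of 0.060 and none at 2-fold. Both lists stand beside 59.4% of all symbols at 1 FPKM or more, of which 0.357% were at 2-fold. At that share, lists this short would mostly hold none. Pbx2 had 13.7 FPKM in Tdg -/- and 16.0 FPKM in fl/fl cells (-0.21), Pknox1 had 6.50 and 6.25 FPKM, and Pknox2 had 4.05 and 3.30 FPKM (0.23). Meis1, often expressed together with Hox genes, was at 0.241 FPKM in Tdg -/- and 0.282 FPKM in fl/fl cells.

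Among 20 activators and retinoid genes, 11 (55%) were at 1 FPKM or more in either genotype, near the 59.4% of all symbols. Of these 11 genes, 4 had a change above 0 and 7 below, with a median of -0.28 and none at 2-fold. Of all 12053 symbols at 1 FPKM or more, 5434 were above 0 and 6619 below. Their median was -0.021, and 0.357% of them were at 2-fold. Rxrb, a retinoid X receptor, had 19.3 FPKM in Tdg -/- and 20.2 FPKM in fl/fl cells. The retinoic acid receptors Rara and Rarg had 14.2 and 14.2 FPKM in Tdg -/- cells and 18.8 and 18.1 FPKM in fl/fl cells, changes of -0.38 and -0.34, with Rara on chromosome 11 and at -0.17 relative to its median. Cdx1, a caudal homeobox gene that acts upstream of Hox genes and was named after its values were seen, had 13.8 FPKM in Tdg -/- and 17.0 FPKM in fl/fl cells, while Cdx2 and Cdx4 were under 0.1 FPKM in both.

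Fibroblasts and differentiating cells are known to express Hox genes, and their markers were read in the same tables. Each count of markers below stands beside 59.4% of all symbols at 1 FPKM or more in either genotype. Of 10 fibroblast markers, 3 (Vim, Thy1 and Twist1) were at 1 FPKM or more, and the list summed to 13.97 FPKM in Tdg -/- and 20.7 FPKM in fl/fl cells, most of it Vim with 10.7 and 16.3 FPKM. Col1a1 had 0.304 FPKM in Tdg -/- and 0.418 FPKM in fl/fl cells, Col3a1 had 0.0102 and 0.0143 FPKM, and Lum and S100a4 were listed at 0 in both. None of the 7 mesoderm markers reached 1 FPKM; they summed to 1.16 FPKM in Tdg -/- and 1.55 FPKM in fl/fl cells. Of 6 endoderm markers 1 did, Gata4 with 1.31 and 1.27 FPKM, and the list summed to 1.52 and 1.59 FPKM. Of 7 neural markers 4 did (57.1%, near the 59.4% of all symbols), led by Tubb3 with 18.7 FPKM in Tdg -/- and 20.2 FPKM in fl/fl cells. The neural list summed to 27.9 and 30.1 FPKM. The part of such cells in the Hox levels was not tested.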

How the data were processed

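Levels are FPKM, deposited by the authors in 1 table per genotype with 20437 rows for 20286 symbols. The tools TopHat 1.4.1 and Cufflinks 1.3.0 come from the submitters' processing notes. The way both libraries of a genotype became 1 value is not stated, and no read numbers are given, so the depth is unknown. Rows of one symbol were summed; each Hox gene had 1 row. Changes used a pseudocount of 1; genes with at least 1 FPKM in either genotype were called measured, and a change of at least 1 on the log2 scale was counted. With 1 pooled value per group, no p-value was computed. Symbols were matched to RefSeq by symbol or synonym (20133 of 20286, all 39 Hox genes) for chromosome and gene order. The 8 deposited region lists of 5fC, 5hmC and p300 use another genome build (mm9) than this annotation (GRCm38.p6), so they were not used here. The planned comparison of proteins was not made. All Hox genes could be named; of each other list, the 3 highest, the 2 with the largest change and any changed 2-fold. Cdx1, Cdx2, Cdx4, Meis1, Evx1, Evx2, fibroblast markers under 1 FPKM and the transcripts inside the clusters were named after their values were seen. A few genes this rule names, and 1 gene in the plots of single genes, are not reported here. The members and lists were chosen with earlier results of these data known. Calculations used Python 3.11.15, pandas 2.3.3, numpy 2.4.6 and scipy 1.17.1. The code of the calls was run on a noise-free copy of the fl/fl values. Large changes were set there only in genes above the level of every Hox gene. That run checks the arithmetic and says nothing of calls at the level of the Hox genes.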

Additional observations from a re-analysis of the deposited data

How the results depend on the processing

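None of the 5 Hox genes at 1 FPKM or more was 2-fold higher or lower with a pseudocount of 0.1, quantile normalization or median scaling. Lowering the minimum to 0.1 FPKM or none adds only genes that cannot reach 2-fold with a pseudocount of 1, and taking the highest row of a symbol changes nothing, since each Hox gene has 1 row, so these say nothing of stability. Without a pseudocount, 4 genes under 1 FPKM passed 2-fold. Here 5 genes had at least 1 FPKM. With a minimum of 5 FPKM 1 passed (Hoxc12), with 0.1 FPKM 21 passed, and without a minimum all 39 are counted. The median change was 0.086 with a minimum of 5 FPKM and 0.086 without Hoxb, against -0.026 as reported. Without its highest member, the summed level was 1.55 FPKM (Tdg -/-) and 1.72 FPKM (fl/fl) for Hoxb, 7.85 and 7.79 FPKM for Hoxc, and 1.46 and 1.48 FPKM for Hoxd; for Hoxa it is not reported here. These moves follow from which genes are counted. The planned counts of 5fC, 5hmC and p300 regions in the clusters were not run, since no annotation of their build was at hand. No paired analysis was possible because each genotype has 1 pooled value per gene. Levels under 0.1 FPKM rest on an unknown number of reads.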

Other observations

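Among the other developmental homeobox genes, 12 of 86 were at 1 FPKM or more in either genotype, against 59.4% of all symbols. Of these genes, 4 had a change above 0 and 8 below, with a median of -0.18 and none at 2-fold. Of all 12053 symbols at that level, 5434 were above 0 and 6619 below, with a median of -0.021 and 0.357% at 2-fold. Six4, which acts in muscle and kidney development, was the highest, with 15.5 FPKM in Tdg -/- and 12.97 FPKM in fl/fl cells. Nkx6-2, a neural tube gene, had 5.49 FPKM in Tdg -/- and 8.25 FPKM in fl/fl cells, a change of -0.51. Otx2, a forebrain and epiblast gene, had 1.51 FPKM in Tdg -/- and 2.55 FPKM in fl/fl cells, a change of -0.50. There is no replicate to set these changes against.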
